A study of Xenopus laevis with 6 samples.

Results

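Cytosolic ribosomal proteins are the proteins of the ribosomes that work outside the mitochondria, and the mRNA levels of their genes are described here for stretched and control (pinned but not stretched) double explants of Xenopus laevis neuroectoderm. The genes were chosen by name alone, as those whose symbol begins with rpl or rps and a digit, together with rplp0, rplp1, rplp2 and rpsa and without the rps6k kinases. This gave 137 of the 42549 rows of the deposited table. The explants came from wild type embryos at stage 11.5, were combined in pairs with their inner sides together and were stretched within 3 h, and poly(A) RNA of 3 stretched and 3 control samples was sequenced. The sources used here do not say how many explants or embryos made up a sequenced sample. For each gene, the value used is the authors' average log2 CPM (CPM, the counts of a gene relative to all counts of a library, on a common scale), which is 1 value over the samples of their fit. Values of single samples were not used, and the authors' own comparison of the groups was not used either, so that no spread between replicates, no depth per sample and no difference between stretched and control explants is given. Each value below is thus a level in stretched and control explants together.

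Every ribosome carries the ribosomal RNAs and a set of proteins that are mostly present once per particle. The small subunit reads the mRNA, the large subunit joins the amino acids, and a flexible stalk of acidic P proteins on the large subunit recruits the elongation factors. The mRNAs of these proteins in vertebrates start with a run of pyrimidines (the 5′ terminal oligopyrimidine tract, TOP), by which their translation is regulated together. Xenopus laevis is an allotetraploid frog with a long and a short set of chromosomes, and the copies of a gene on them (homeologs) carry the endings .L and .S.

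The 137 rows comprised 72 genes with the ending .L, 64 with .S and a further rps9 row with no ending, 1 in number. They represented 80 symbols, and all 137 names matched the Xenopus laevis v10.1 RefSeq annotation. Of 77 canonical ribosomal proteins listed for the rule, 74 had a row, namely 30 of 31 of the small subunit, 41 of 43 of the large subunit and all 3 of the P stalk. Rows named rps28, rpl37a or rpl41 were not among those analysed here. The remaining 9 rows lay outside the canonical lists. They were the homeologs of rpl3l, rps27l and rps28p9, together with rpl7l1.L, rpl22l1.L and rps19bp1.L. By its name the last encodes a partner of a ribosomal protein rather than a component of the ribosome, so the label of the group does not hold for this row. Whether the label holds for the others of these 9 rows, such as rpl7l1.L, was not examined. The genes rpl3l.L and rps2.L lie next to each other in the v10.1 annotation.

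All ribosomal protein genes together took 1.06% of the summed CPM of the table. The median average log2 CPM of the 137 rows was 6.0, with quartiles of 5.36 and 6.73, against a median of -0.86 over all 42549 rows. None of the rows stood at the lowest value of the table (-2.08), where 12476 rows of other genes were listed. An average log2 CPM above 4 was found in 128 of the 137 rows (93.4%), against 20.2% of the 42412 other rows. CPM is not divided by the length of the mRNA, and no transcript lengths were available here. These values are therefore shares of reads, and a short mRNA gives fewer reads than a long one at the same number of molecules, which matters for the many short mRNAs of this group.

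The proteins of the small subunit took 44.3% of the reads of the group (54 rows) and those of the large subunit 49.7% (69 rows), while the P stalk took 2.71% (5 rows). The median average log2 CPM was 6.21 over rows of the small subunit, 5.89 over rows of the large subunit and 5.72 over rows of the P stalk. When the homeologs of a symbol were summed, the median log2 CPM was 7.40 for the 30 small subunit symbols (quartiles 6.73 and 7.64), 6.61 for the 41 large subunit symbols (6.18 and 7.34) and 6.28 for the 3 stalk symbols. The sums depend on how many rows a symbol has. Both homeologs had a row in 23 of the 30 small subunit symbols and 28 of the 41 large subunit symbols, and rps9 has a further row. With the higher homeolog in place of the sum, the medians were 6.76 (small subunit) and 6.02 (large subunit). The ranges of the small subunit (3.52 to 8.66) and the large subunit (2.63 to 8.49) overlapped almost entirely.

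**Figure D1:**
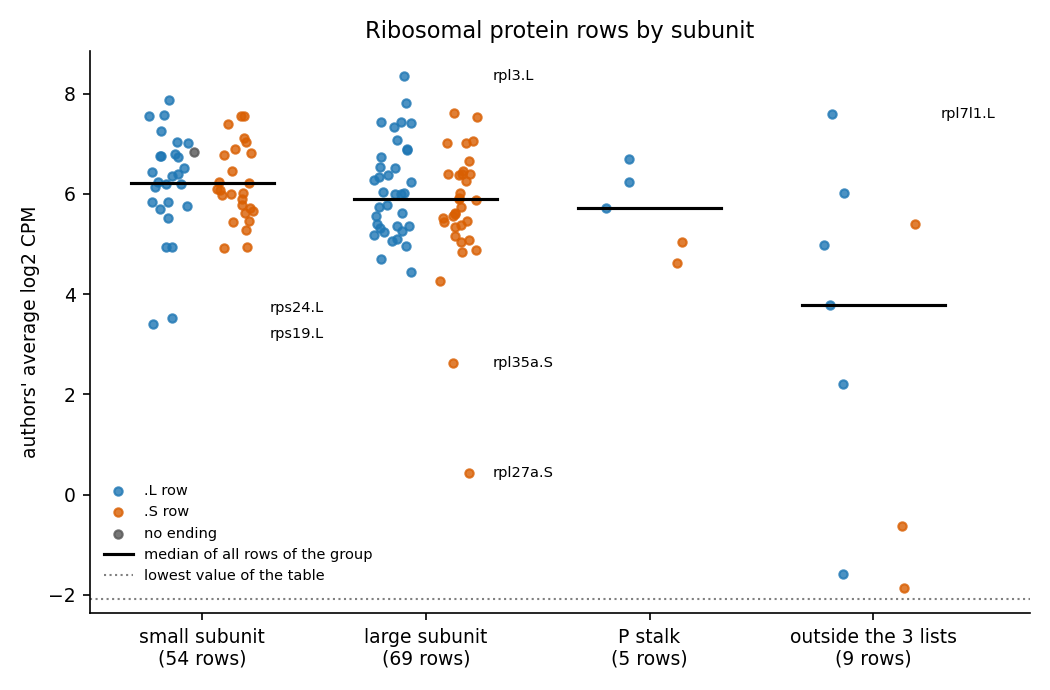
Average log2 CPM (vertical axis) of each of the 137 ribosomal protein rows, each point being 1 gene of the authors' table, coloured by .L or .S ending, with the median of each group as a black line. Most rows lie between 5 and 7.5, and rpl27a.S (0.43), rpl35a.S (2.63), rps19.L (3.41) and rps24.L (3.52) lie below the bulk of the canonical rows.

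Among the canonical symbols with homeologs summed, rps20 had the most reads. Its product belongs to the small subunit, and its 404.6 CPM came from rps20.L (236.0 CPM) and rps20.S (168.6 CPM). The large subunit genes rpl6, rpl3 and rpl4 followed with 360.4, 325.5 and 307.9 CPM. The fifth was rps4x of the small subunit with 298.9 CPM. The reads of rpl3 came from rpl3.L alone, which was the highest single row of the group at a log2 CPM of 8.35. At the other end stood rpl35a, with 6.21 CPM from rpl35a.S, and rps24, with 11.5 CPM from rps24.L. The large subunit genes rpl14, rpl27a and rpl19 came next with 28.7, 35.6 and 38.5 CPM. All 5 of these except rpl27a were represented by a single homeolog, as were 21 of the 74 canonical symbols. The second homeologs of these symbols were not analysed here.

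The acidic stalk consists of rplp0, which anchors it to the large subunit, and of rplp1 and rplp2, which bind to it as dimers. Their rows were rplp0.L with 104.0 CPM and rplp0.S with 33.1 CPM, rplp1.L with 75.4 CPM, and rplp2.L with 52.9 CPM and rplp2.S with 24.6 CPM. In both pairs of the stalk the .L gene thus had more than 2-fold the reads of the .S gene.

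Rpl5 and Rpl11 bind the 5S ribosomal RNA before it enters the large subunit, and in mammals the free complex inhibits the ubiquitin ligase Mdm2. Reads were 169.8 CPM for rpl5.L and 100.9 CPM for rpl5.S, and 65.5 CPM for rpl11.L and 88.1 CPM for rpl11.S. Neither pair differed by more than 2-fold, and the .L gene was the higher one in rpl5 and the .S gene in rpl11.

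In this group, 9 genes were set together as those whose proteins line the exit tunnel of the large subunit or surround its opening, through which the growing chain leaves the ribosome (rpl4, rpl17, rpl19, rpl22, rpl23a, rpl26, rpl31, rpl35 and rpl39). Their 16 rows took 9.67% of the reads of the group, with a median log2 CPM of 5.48. Over all 28 large subunit pairs, 64.3% differed by less than 0.5 on the log2 scale, against 33.3% of the 7712 pairs outside the ribosomal proteins. The 9 genes were set together after the values were seen. In 5 of their 7 homeolog pairs the difference stayed below 0.5, near the share of the large subunit. The exceptions were rpl4, which had 223.8 CPM in rpl4.L and 84.1 CPM in rpl4.S, and rpl23a, with 106.6 CPM in rpl23a.L and 48.5 CPM in rpl23a.S. Rpl4 reaches into the tunnel with a long loop, and Rpl23a forms a docking site at its opening.

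Mutations of some ribosomal protein genes cause Diamond-Blackfan anaemia in humans, a failure of red cell formation. For 10 such genes, 18 rows were set side by side (rps7, rps10, rps19, rps24, rps26, rpl5, rpl11, rpl15, rpl26 and rpl35a). They had a median log2 CPM of 6.12 and a range from 2.63 to 7.56. This group held both the lowest canonical symbols (rpl35a and rps24) and rps19.S, which was among the 10 highest rows of the ribosomal proteins. The rows of all canonical members had a median of 6.03 and ranged from 0.43 to 8.35. The 10 genes were chosen after the values were seen and need not be a complete list. Their range is therefore not a result about disease genes.

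Several members known for special roles stood within the main range. Rps6 of the small subunit, whose tail is phosphorylated by S6 kinase downstream of mTOR, had 153.3 CPM in rps6.L and 52.5 CPM in rps6.S. The gene rpl38, needed in the mouse for the translation of Hox mRNAs, had 37.7 CPM in rpl38.L and 41.4 CPM in rpl38.S. Rpl10 is added late to the large subunit and completes its active site, and its reads were 117.5 CPM in rpl10.L and 44.2 CPM in rpl10.S. The gene rps27a, which is made as a fusion with ubiquitin, had 111.6 CPM in rps27a.L and 65.1 CPM in rps27a.S. Of these 4 pairs, rps6 and rpl10 differed by more than 2-fold and rps27a and rpl38 did not.

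Some ribosomal proteins have symbols that do not begin with rpl or rps. The gene fau, which encodes the small subunit protein eS30 in fusion with a ubiquitin-like protein, had 39.5 CPM in fau.L and 61.7 CPM in fau.S. The scaffold protein gene rack1 of the small subunit had 176.1 CPM in rack1.L and 124.4 CPM in rack1.S.

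The rows outside the canonical lists were spread more widely. The highest was rpl7l1.L, a relative of rpl7, with 193.5 CPM, beside 172.9 CPM for rpl7.L itself, and it ranked 5 among the 137 rows. The gene rps19bp1.L had 64.7 CPM. The rows rps28p9.L (31.4 CPM) and rps28p9.S (42.0 CPM) carry a name derived from rps28, for which no row was analysed here. The paralog of rpl22, rpl22l1.L, had 13.8 CPM, against 41.0 CPM for rpl22.L and 32.9 CPM for rpl22.S. The paralog rps27l had 4.64 CPM in rps27l.L and 0.65 CPM in rps27l.S, against 108.5 CPM for rps27.L and 55.0 CPM for rps27.S. The rows of rpl3l, which in mammals is a form of rpl3 in heart and skeletal muscle, were the lowest of all with 0.34 CPM (rpl3l.L) and 0.28 CPM (rpl3l.S), against 325.5 CPM for rpl3.L. Their log2 values of -1.58 and -1.86 lie near the lowest value of the table (-2.08). In each of these paralog pairs except rpl7l1, the canonical gene had the larger share of reads. Reads that fit a gene and its paralog equally could be counted for either or left out. The sources used here do not say which was done.

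Of the 80 symbols, 56 had both an .L and an .S row, and the balance of homeologs can be compared within each pair. The .L gene had more reads in 36 of the 56 pairs (64.3%), against 53.9% of the 7712 other homeolog pairs of the table. With both rows above a log2 CPM of 0, the shares were 63.0% of 54 pairs and 56.0% of 4662 others. With both above 4, they were 63.5% of 52 pairs and 55.3% of 2043 others. The median difference of .L minus .S was 0.18 on the log2 scale in ribosomal protein pairs and 0.12 in the other pairs. It was 0.17 against 0.21 with both rows above 0, and 0.17 against 0.13 with both above 4. Summed over the 56 pairs, the .L genes took 53.0% of the reads, against 52.2% in the other pairs. No test was made of these differences, since genes are not replicates.

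How far the homeologs of a gene lay apart was described by the absolute difference of .L and .S. Its median over the 56 ribosomal protein pairs was 0.53 on the log2 scale, against 0.94 in the other pairs. A difference above 1 (2-fold) was found in 16 of 56 pairs (28.6%), of which 10 were higher in .L and 6 in .S, against 47.8% of the other pairs. As many other genes have few reads, the comparison was repeated with filters on both rows. With both rows above an average log2 CPM of 0, the median was 0.53 in 54 ribosomal protein pairs and 1.01 in 4662 other pairs. Of these pairs, 27.8% and 50.4% differed by more than 1. A filter of both rows above 4 was chosen after the values were seen. It left out rpl27a, rps19 and rps27l, the pairs with the largest differences, as well as rpl3l. The median absolute difference was then 0.49 in 52 ribosomal protein pairs and 0.71 in 2043 other pairs, and 25.0% of the ribosomal protein pairs and 35.3% of the other pairs differed by more than 1. Within the group, the median absolute difference was 0.78 over 23 pairs of the small subunit and 0.31 over 28 pairs of the large subunit. In the small subunit 8 of 23 pairs differed by more than 1, and in the large subunit 5 of 28. With both rows above 4, the median was 0.76 over 22 small subunit pairs, near the 0.71 of the other pairs, and 0.30 over 27 large subunit pairs. A difference of at most 0.5 was found in 36.4% of these small subunit pairs and 66.7% of these large subunit pairs, against 38.1% of the other pairs. Reads that match both homeologs could be assigned to either or left out, and the sources used here do not say how they were treated. The part of such reads in the balance was not tested.

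**Figure D2:**
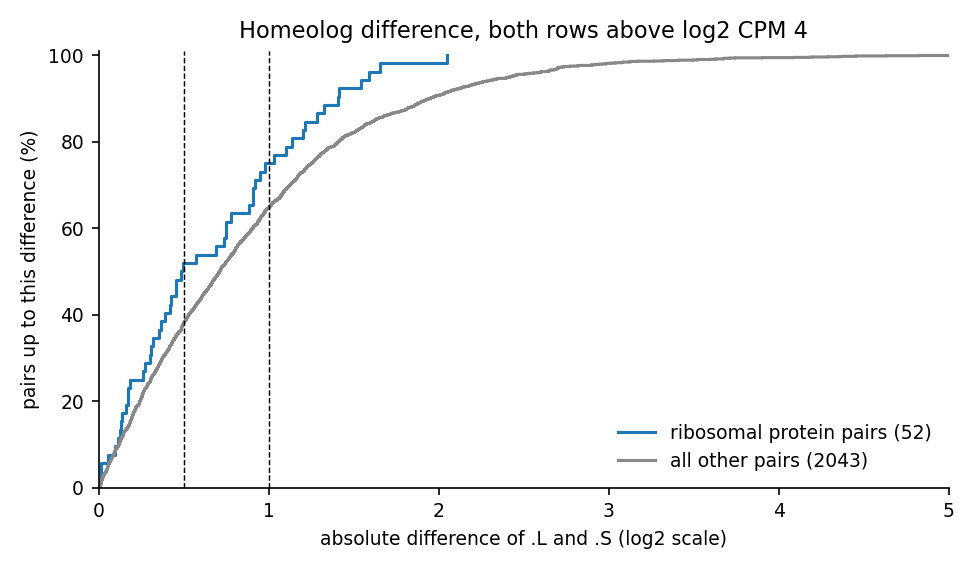
Share of homeolog pairs (vertical axis, %) whose absolute difference of .L and .S on the log2 scale is at most the value on the horizontal axis, for ribosomal protein pairs and all other pairs with both rows above an average log2 CPM of 4. The curve of the 52 ribosomal protein pairs lies above that of the 2043 others at 0.5 (51.9% against 38.1%) and at 1.

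The largest difference in favour of .L was that of rpl27a, a large subunit protein. It had 34.2 CPM in rpl27a.L and 1.34 CPM in rpl27a.S, so that 96.2% of its reads were counted for .L (difference of 4.67 on the log2 scale). The paralog rps27l followed with 87.7% of reads in .L, but rps27l.S had only 0.65 CPM, so this share is among the least certain. The next were rplp0, rps3 of the small subunit, which lies at the entry of the mRNA channel, and rps6, with 75.9%, 75.1% and 74.5% of reads in .L. The canonical pairs rpl4, rpl10, rpl23a and rplp2 had 72.7%, 72.6%, 68.7% and 68.2%.

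In the opposite direction, rps19, the gene most often mutated in Diamond-Blackfan anaemia, had the largest difference. Its .L gene had 10.6 CPM and its .S gene 189.2 CPM, so that 5.32% of its reads were counted for .L (difference of -4.15 on the log2 scale). The gene rpsa encodes a protein of the small subunit that also occurs as a laminin receptor, and it had 45.6 CPM in rpsa.L and 188.2 CPM in rpsa.S (19.5% in .L). The share of .L was 28.5% in rps3a, 29.1% in rps15 and 32.9% in rps9, which are genes of the small subunit, and 30.3% in rpl36 of the large subunit. The rps9 row without an ending had 114.5 CPM and thus more reads than rps9.L (30.7 CPM) and rps9.S (62.7 CPM). The copy to which this row belongs was not determined here. Counted with .L, it would turn the direction, with 69.9% of the reads in .L and a difference of 1.21 on the log2 scale. The pairs that differed by more than 1 would then number 11 higher in .L and 5 in .S. Counted with .S, it would leave 14.8% in .L.

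**Figure D3:**
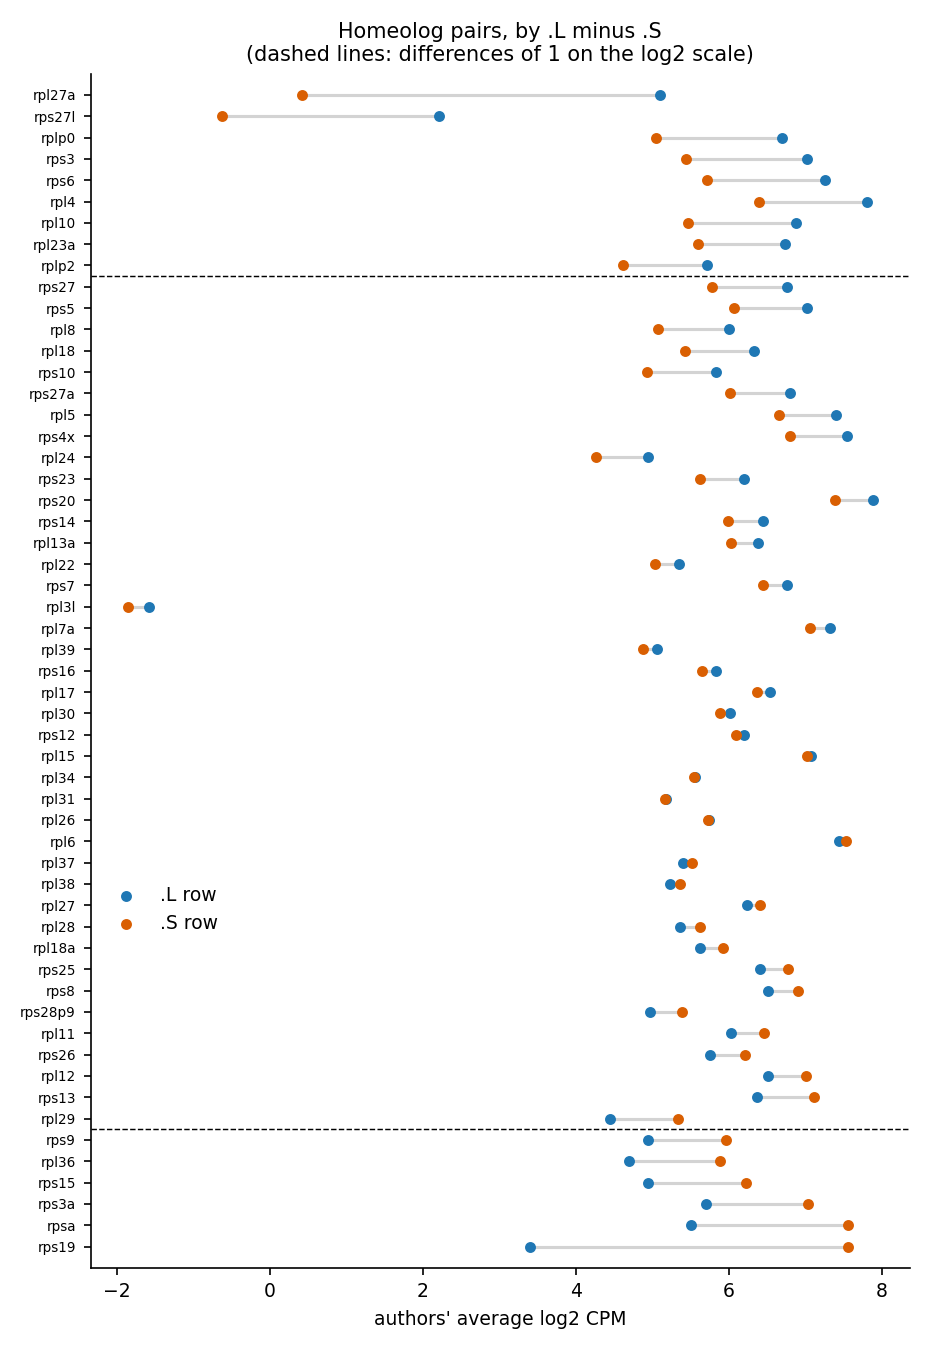
Average log2 CPM (horizontal axis) of the .L and .S row of 55 of the 56 ribosomal protein symbols with both (1 of the 10 pairs higher in .L by more than 1 is not drawn), ordered from the pair with the largest excess of .L (top) to that with the largest excess of .S (bottom), with a grey line joining the 2 rows. The 9 pairs above the upper dashed line and the 6 below the lower one differ by more than 1, and rpl27a (top) and rps19 (bottom) have the longest lines.

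At the other extreme, 28 of the 56 pairs (50%) differed by less than 0.5 on the log2 scale, against 33.3% of the 7712 other pairs. With both rows above a log2 CPM of 0, it was 27 of 54, against 27.5% of 4662 others. Such a small difference was found in 18 of 28 large subunit pairs but 8 of 23 small subunit pairs (34.8%), near the share of the other pairs. The closest of the 56 pairs were those of the large subunit genes rpl26, rpl31 and rpl34. In each of them 50.1% to 50.2% of the reads were counted for .L, with 53.6 and 53.4 CPM in rpl26.L and rpl26.S, 36.3 and 36.0 CPM in rpl31.L and rpl31.S, and 47.3 and 46.9 CPM in rpl34.L and rpl34.S. The pair of rpl15 (134.5 CPM in rpl15.L and 129.7 CPM in rpl15.S) and that of rpl6 (174.0 CPM in rpl6.L and 186.3 CPM in rpl6.S) were close at higher reads.

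Across the 53 canonical pairs, the levels of the homeologs were weakly related (Pearson's r = 0.33, Spearman's rho = 0.41 on the log2 scale, across genes of the same libraries). Without rps19 and rpl27a, the pairs with the largest differences, r was 0.49 over 51 pairs. The points share the same libraries, and reads may pass between the rows of a pair, so this relation is a description only. The SD across genes was 0.92 for the .L rows, 1.11 for the .S rows and 0.75 for the sums of both. The distance between the quartiles was 1.25, 1.02 and 1.07 in the same order. By this measure the sums were not narrower than the .S rows. A sum of 2 rows can also vary less than a single row by arithmetic alone.

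Among other genes of translation, the mitochondrial ribosomal proteins (94 rows named mrpl or mrps) had a median log2 CPM of 3.37, lower than the 6.0 of the cytosolic ones, and together took 0.15% of the summed CPM. Initiation and elongation factors (95 rows named eif or eef) had a median of 6.55 and genes of ribosome assembly (46 rows) of 6.94. The 23 rows of other mRNAs known to carry a TOP tract had a median of 7.79, and 13 of the 15 listed symbols had a row. Rows named eef2 or tpt1 were not among those analysed here. These medians are of reads not divided by mRNA length, so they do not rank the groups by number of molecules. These groups overlap. The eef1, eif3 and eif4b rows of the TOP list and eif6 of the assembly list are also counted as translation factors. The rows of npm1 are in both the TOP and the assembly list. Of all 20 homeolog pairs of mitochondrial ribosomal proteins, 75.0% differed by more than 1 on the log2 scale, against 28.6% of the cytosolic pairs. Only 1 of these 20 pairs had both rows above a log2 CPM of 4, so no comparison at like levels could be made. The corresponding share was 35.3% of 34 pairs of translation factors and 21.4% of 14 pairs of ribosome assembly genes. With both rows above 4, the share was 25.0% of the 52 cytosolic ribosomal protein pairs (median absolute difference 0.49), 25.0% of 28 translation factor pairs (0.46) and 8.33% of 12 assembly pairs (0.28). A small distance between homeologs was thus also found in these gene groups.

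**Figure D4:**
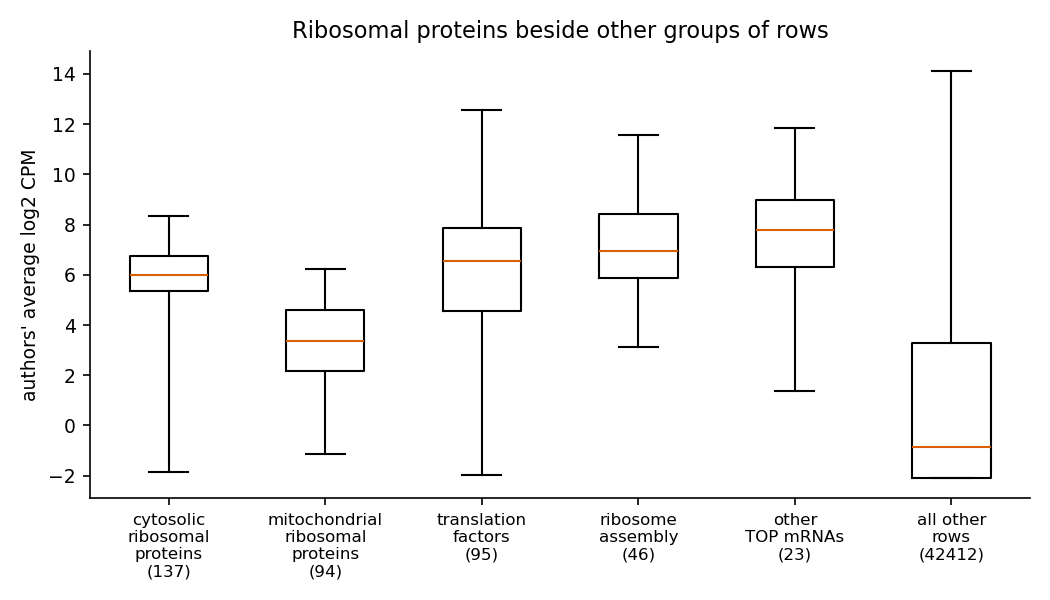
Average log2 CPM (vertical axis) of cytosolic ribosomal protein rows and of 5 other groups of rows, some of which share rows, with the number of rows in brackets. Boxes span the quartiles with the median as a line, and whiskers run from the lowest to the highest row. The median is 6.0 for cytosolic and 3.37 for mitochondrial ribosomal proteins, and the cytosolic box is the narrowest. Values are not divided by mRNA length.

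The tissue of the explants was checked with marker lists. Neural genes had a median log2 CPM of 5.84 (19 rows) and genes of the epidermis of 8.11 (18 rows), while endodermal genes had 0.51 (14 rows), with none of them above 2. The median of the epidermal list was thus above that of the neural list, and the share of each tissue in the explants was not measured. Of the mesodermal list, in which 3 of 7 symbols had a row, tbxt.L had 57.2 CPM and tbxt.S 110.8 CPM. The other 3 rows, of myf5 and tbx6, had at most 2.07 CPM. Rows named myod1, chrd, noto or actc1 were not among those analysed here, so the amount of mesoderm cannot be read from this list. The part of these tissues in the levels of ribosomal protein genes was not tested.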

How the data were processed

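Poly(A) RNA from 3 stretched and 3 control samples was sequenced. The paper's methods name STAR for mapping and DESeq2 for fold changes. In the submitters' processing notes, edgeR, DESeq, HTSeq and TopHat2 are listed, with no version for any. The genome build is not given in the sources used here, nor is the annotation. The authors deposited 1 table with 5 columns of values for each gene. Its average log2 CPM was the only column used. The other 4 columns hold the authors' own comparison of the groups (log2 fold change, F, p-value and FDR) and were not used, so the comparison planned on counts per sample, to which replicates, pairing and normalization belong, was not made.

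CPM was computed as 2 to the power of the average log2 CPM (sum over all rows 1012667). Rows at the lowest value of -2.08 thus also have a positive CPM, which was not subtracted from the CPM or shares given. Homeologs are rows with the same symbol and the endings .L and .S, and differences above 1 on the log2 scale were counted. One symbol of another gene occurs in 2 rows and was left out of the pairs. The members and lists were chosen with earlier results of these data known, and the groups by position in the ribosome and by human disease after the values were seen. Genes named were the 5 highest and the 5 lowest canonical symbols, members outside the canonical lists, and genes of known roles. Pairs named for a large difference were 9 of the 10 higher in .L by more than 1 and the 6 higher in .S. Some close pairs were named as well. Levels could not be divided by coding length, as planned, because no lengths or sequences were available, and TOP starts and protein identity were not examined for the same reason. The alternatives tried were filters on low values, canonical members alone, the higher homeolog in place of the sum, a pseudocount of 1 CPM and a limit of 0.5. Pairing of homeologs and counting were tested on simulated data. Python 3.11.15 with pandas 2.3.3, numpy 2.4.6 and matplotlib 3.10.9 was used. The paper gives a minimum number of reads per sample, but the exact depth of each sample is not known here. Values of a few genes of the lists are not reported here one by one.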

Additional observations from a re-analysis of the deposited data

How the results depend on the processing

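No paired analysis was possible because the deposited table used here gives 1 average for all samples, and for the same reason no replicate could be left out and no other normalization tried. With canonical members only, the median log2 CPM of ribosomal protein rows was 6.03, their share of the summed CPM 1.02% and the median absolute difference of homeologs 0.57. Among rows with an average log2 CPM above 0 the share was 1.06%, and the median of all rows above the lowest value was 1.62. With the higher homeolog in place of the sum, the median log2 CPM of symbols was 6.76 in the small subunit, 6.02 in the large subunit and 6.24 in the P stalk. With a pseudocount of 1 CPM the median of .L minus .S was 0.17 and the median absolute difference 0.53. With both rows above 0 or above 4 (the filter at 4 and the restriction of pairs to canonical members were chosen after seeing the data), the median of .L minus .S was 0.17 each, and the median absolute difference was 0.49 above 4. A limit of 0.5 counted 20 pairs higher in .L and 8 higher in .S, beside 10 and 6 at a limit of 1. The difference of rps9 (-1.03) reversed to 1.21 with its row without an ending counted for .L and was -2.53 with it counted for .S, alternatives added after seeing the data. The counts of pairs beyond 1 stayed within 1.5 times of those reported in the other alternatives. Values rest on reads not divided by length, and genes of few reads, such as rpl3l and rps27l.S, are the least certain.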
